A study of Mus musculus with 6 samples.

Results

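The 36 genes described here encode the machinery of mitosis and of the passage from G2 into M phase. They were chosen by name, as mitotic kinases, cyclins and spindle, kinetochore and cytokinesis genes, and all 36 were found among the 26264 gene symbols counted in each library. The libraries are bulk RNA sequencing of mouse brown preadipocytes, and of adipocytes differentiated from them, which carry the labels Bl6N and wild-type. The cells came from the stromal vascular fraction of interscapular brown fat and had been immortalized with SV40 large T antigen, a viral protein that binds p53 and the RB family, so both treatment groups carried it. Cells received FGF8, a secreted fibroblast growth factor, at 5.5 nM for 48 h, or were left untreated, and the methods call such controls vehicle-treated. They were harvested at the end of this pretreatment (day 0) or on day 3 or day 9 of differentiation without FGF8. The sample titles write the later days as D3 and D7, while the study counts days 3 and 9 from the end of FGF treatment. D7 was read here as day 9, because the study's day 9 includes 7 days on differentiation medium after induction. Under this reading D7 counts from the end of induction, while D3 was kept as day 3 from the end of FGF treatment. There was 1 library for each of the 6 combinations of treatment and day, so a difference between 2 libraries had no replicate error and no p-value is given for it. The growth protocol in the labels describes white primary cells, which differs from the sample titles, and the titles were followed here.

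Entry into mitosis is driven by CDK1 bound to cyclin A or cyclin B, and the kinases PLK1 and Aurora A and B then build the spindle and correct its attachments. The spindle checkpoint holds the anaphase-promoting complex (APC/C) until every kinetochore is attached, after which the APC/C with CDC20 and UBE2C marks cyclin B for destruction and the cell divides. Many of these genes are transcribed in G2 and M phase by B-MYB, FOXM1 and the MuvB complex, and are held down in resting cells by the DREAM complex, which combines MuvB with p130 or p107 and an E2F. MuvB binds a short element called the CHR, and NF-Y binds the CCAAT box that often lies upstream of it.

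RefSeq promoter sequences, from 250 bases before to 50 bases after the annotated gene start in GRCm38.p6, were matched for 29 of the 36 genes. Ccna2, Cdc25c, Foxm1, Aurkb, Incenp, Tpx2 and Kif20a had no entry. The CHR was searched as TTTGAA or TTCGAA and the NF-Y box as CCAAT, each on both strands, and 1 pair of CHR and CCAAT matches shared a base. A CHR was found in 22 of the 29 promoters (75.9%), against 17.7% of the 19526 promoters of all genes in the count table. A CCAAT box was also found in 22 of them (75.9%), against 39.1% of all promoters, and 19 (65.5%) held both, against 7.41% of all. In 42 promoters of other mitotic genes 69.0% held a CHR, 66.7% a CCAAT box and 52.4% both. In 25 promoters of DNA replication genes the CHR share was 20.0% and the CCAAT share 68.0%. The stretches below run from 110 bases before the start to 10 bases after it, or from 200 bases before for Top2a and Mki67. They are shown for some of the genes described below, chosen by hand, so the shares above and not this choice describe the 29 promoters. Capitals mark the CHR and CCAAT matches on either strand.
Cdk1 (chr10:69352903-69353022, minus strand): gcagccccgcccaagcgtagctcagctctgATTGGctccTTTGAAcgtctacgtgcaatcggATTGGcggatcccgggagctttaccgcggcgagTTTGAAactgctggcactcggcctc
Ccnb1 (chr13:100786477-100786596, minus strand): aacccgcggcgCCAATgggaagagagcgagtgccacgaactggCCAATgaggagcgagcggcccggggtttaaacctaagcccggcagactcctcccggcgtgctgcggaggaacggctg
Ccnb2 (chr9:70421545-70421664, minus strand): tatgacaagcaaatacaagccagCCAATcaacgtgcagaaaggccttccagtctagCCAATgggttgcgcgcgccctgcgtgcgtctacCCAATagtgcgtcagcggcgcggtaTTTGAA
Cdc20 (chr4:118437334-118437453, minus strand): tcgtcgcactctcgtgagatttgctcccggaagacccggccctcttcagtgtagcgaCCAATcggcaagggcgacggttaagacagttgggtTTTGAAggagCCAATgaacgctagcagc
Ube2c (chr2:164769819-164769938, plus strand): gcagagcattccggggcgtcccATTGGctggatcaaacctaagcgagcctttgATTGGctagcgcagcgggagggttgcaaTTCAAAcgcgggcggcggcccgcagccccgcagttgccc
Kif11 (chr19:37376272-37376391, plus strand): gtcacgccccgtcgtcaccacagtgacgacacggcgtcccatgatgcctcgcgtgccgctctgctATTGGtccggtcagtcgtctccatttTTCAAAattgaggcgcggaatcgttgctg
Kif23 (chr9:61946790-61946909, minus strand): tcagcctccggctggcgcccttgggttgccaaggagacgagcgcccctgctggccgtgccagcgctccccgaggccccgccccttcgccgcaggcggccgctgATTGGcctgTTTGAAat
Nusap1 (chr2:119618188-119618307, plus strand): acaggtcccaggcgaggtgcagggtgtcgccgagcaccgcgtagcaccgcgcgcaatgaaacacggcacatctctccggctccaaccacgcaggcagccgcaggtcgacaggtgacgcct
Top2a (chr11:99024180-99024389, minus strand): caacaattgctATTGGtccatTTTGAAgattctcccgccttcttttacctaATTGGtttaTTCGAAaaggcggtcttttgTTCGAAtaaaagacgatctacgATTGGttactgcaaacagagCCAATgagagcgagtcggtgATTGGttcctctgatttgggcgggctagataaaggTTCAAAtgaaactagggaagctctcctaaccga
Mki67 (chr7:135716370-135716579, minus strand): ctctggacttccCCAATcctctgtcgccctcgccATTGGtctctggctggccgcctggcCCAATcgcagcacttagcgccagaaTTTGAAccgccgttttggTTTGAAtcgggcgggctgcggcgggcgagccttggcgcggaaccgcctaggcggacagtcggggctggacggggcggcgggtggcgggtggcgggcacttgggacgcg
Cdk1, Kif11, Cdc20, Ube2c, Ccnb2, Kif23, Top2a and Mki67 held both motifs in the stretch shown. Ccnb1 held CCAAT boxes without a CHR, and Nusap1, like Birc5, Mad2l1 and Nuf2, held neither in the whole window. A match is a description of letters and not of binding.

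**Figure D1:**
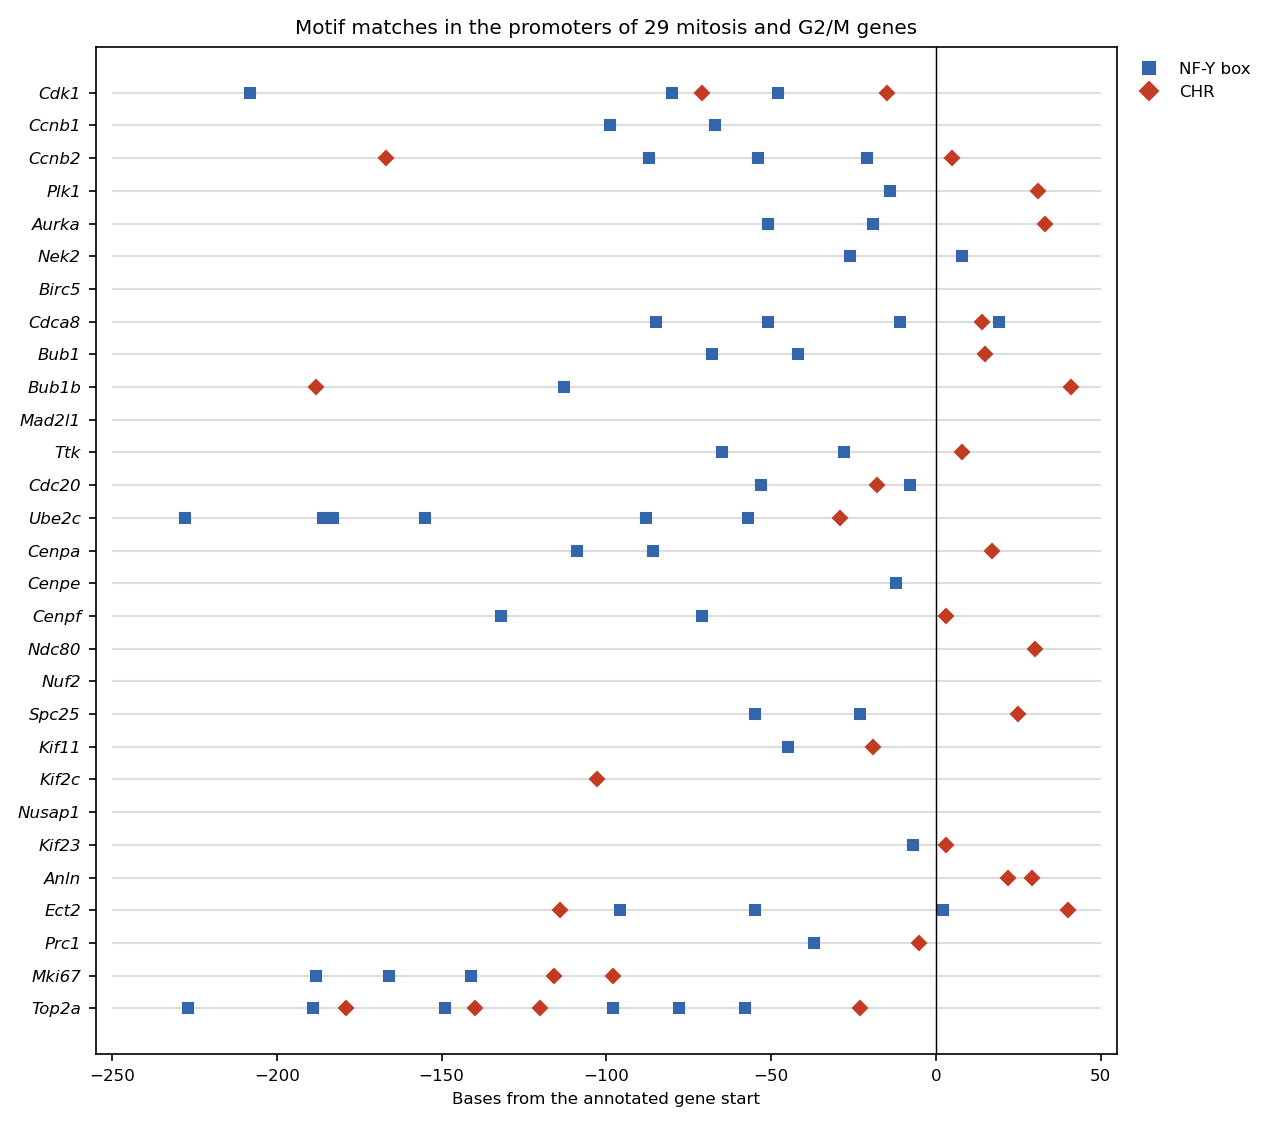
Positions of CHR (diamonds) and NF-Y box (squares) matches in bases from the annotated gene start, with 1 line for each of the 29 promoters. In 10 promoters a CHR begins between 50 bases before and 10 bases after the start, and the most NF-Y boxes in 1 promoter are 6.

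The libraries held between 16403254 and 38551551 counts. The untreated day 3 library (19468173 counts) had fewer counts than the FGF8 day 3 library (38031701 counts). Counts were divided by size factors over the 6 libraries, and the result is called the normalized count below. Both day 0 libraries stood apart from the later ones in Xist, the RNA that coats the inactive X chromosome of female cells. Xist had 3716 normalized counts in untreated and 7473 in FGF8 cells at day 0, but between 7.02 and 21.1 in the 4 later libraries. The Y-linked genes Ddx3y, Eif2s3y, Kdm5d and Uty were present in all 6 libraries, at 845 to 3890 normalized counts. In all, 10 genes had over 1000 normalized counts in at least 1 day 0 library and under 10 in every later library, and 4 of them had over 1000 in both day 0 libraries. Time of harvest and the source of the cells can therefore not be told apart in comparisons of day 0 with a later day, and results without day 0 are given beside them. Xist also differed between the treatments at day 0. The part of the makeup of the cells in the day 0 folds of FGF8 against untreated cells was not tested.

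The summed level of 12 adipocyte markers was 9501 and 3254 normalized counts at day 0 (untreated and FGF8) and between 450330 and 775840 at days 3 and 9. The summed level of 10 preadipocyte markers ranged from 324270 to 532860 in untreated and from 116640 to 163390 in FGF8 libraries. Such sums follow the most abundant genes, Lpl at day 0 (8251 and 2025) and Col1a1 among the preadipocyte markers (152200 in untreated day 3 cells). The untreated preadipocyte sum was lowest at day 0 and highest at day 9. Gene by gene, 8 of the 10 were lower by 2-fold or more at day 9 than at day 0 in untreated cells (19.5% of all genes were), and 2 were higher. Of 12 macrophage markers, Adgre1, C1qa, C1qb and C1qc were at 0 in every library, and the list summed to between 141 and 313 normalized counts. The 10 endothelial markers summed to 1946 in untreated day 0 cells, mostly from Kdr, and to between 219 and 543 elsewhere. In bulk RNA, fewer cells in division and less RNA of these genes per cell cannot be told apart.

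The mitotic genes were expressed in every library, and their summed level was lower on each later day in both treatments. This sum also follows its most abundant genes, Top2a and Mki67. Gene by gene, 5 of the 36 in untreated and 11 in FGF8 cells were higher at day 3 than at day 0. Together the 36 took 0.516%, 0.306% and 0.181% of all counts in untreated cells at days 0, 3 and 9, and 0.608%, 0.401% and 0.226% in FGF8 cells. In every pair of libraries the mean of each of the 36 was 200 or more. Per kilobase of merged annotated exons, a scale that understates genes with long, little used isoforms, Top2a was the highest at day 0 (1992 in untreated and 2661 in FGF8 cells) and Cdc20 at day 9 (697 and 856). Cdc25c was the lowest in all 6 libraries, at 110.9 in untreated day 0 cells and 45.8 in untreated day 9 cells.

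**Figure D2:**
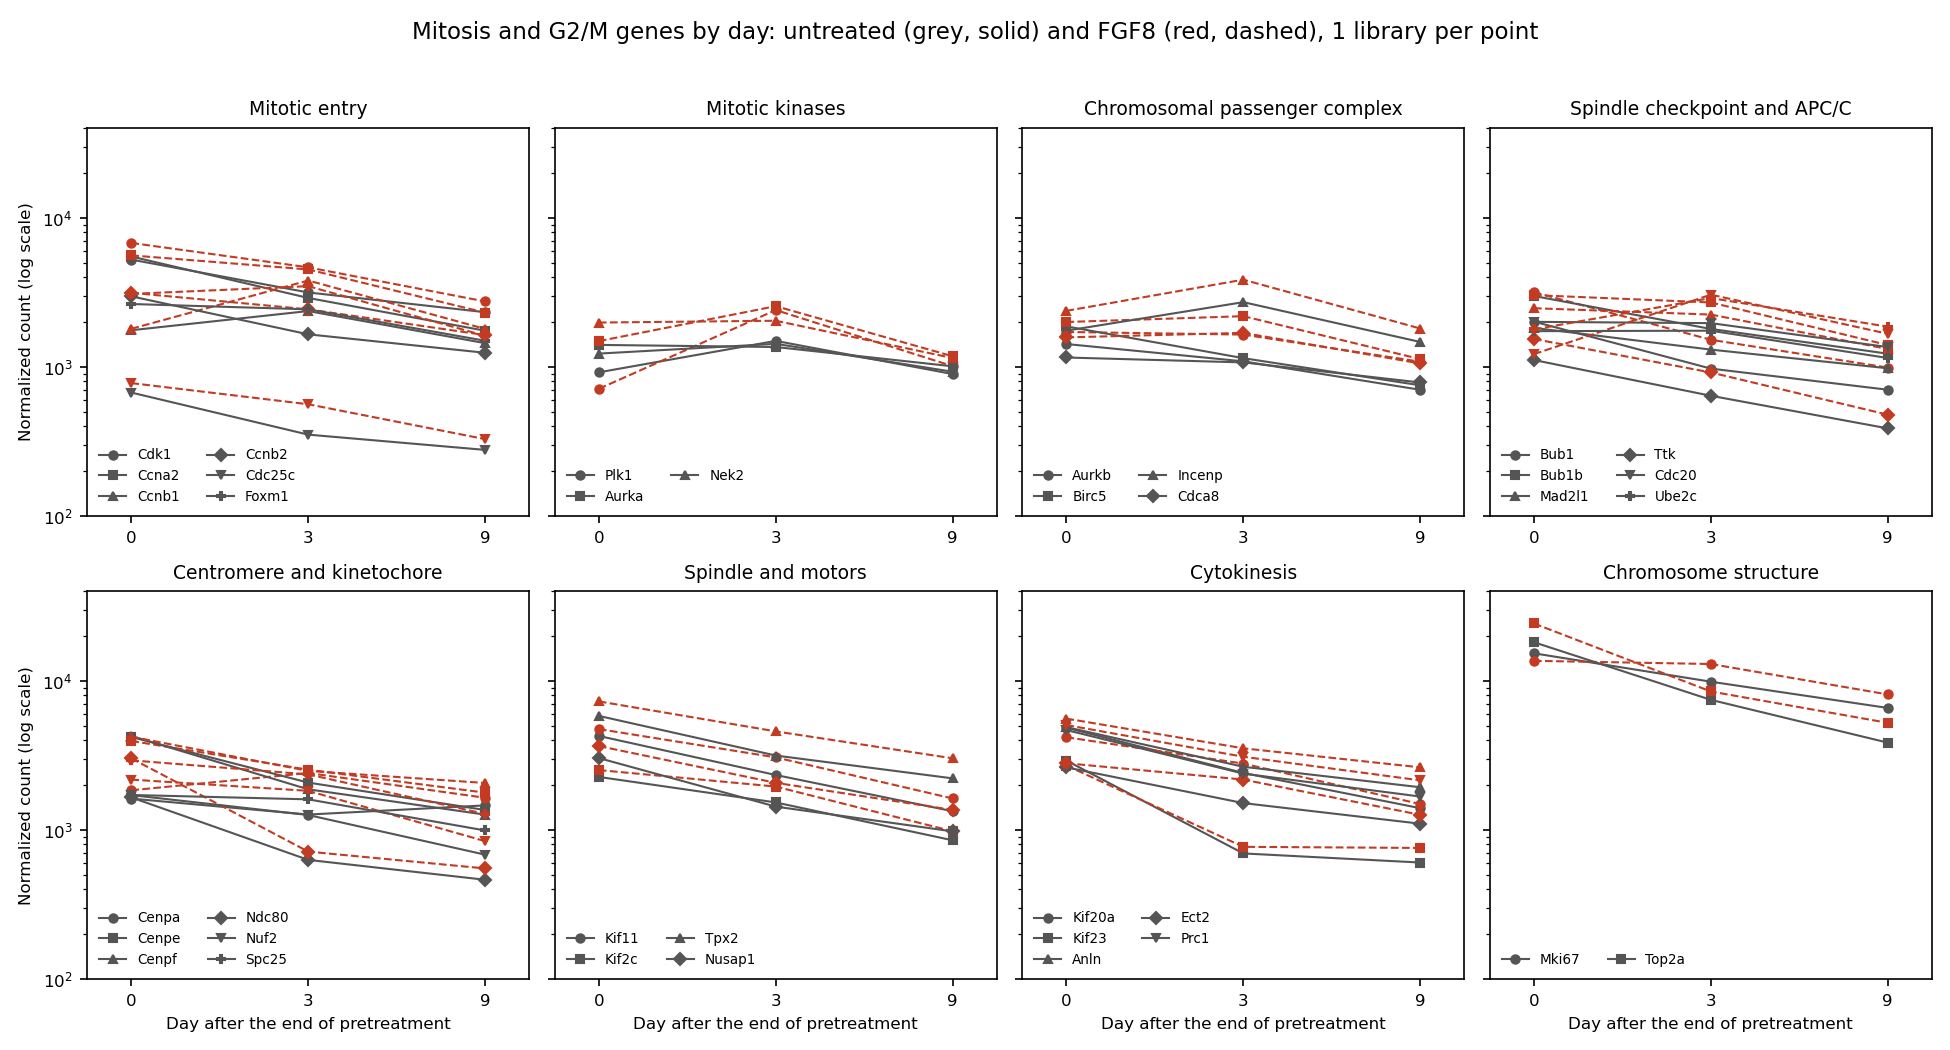
Normalized counts (log scale) of the 36 genes at days 0, 3 and 9 after the end of pretreatment, in 8 panels by role, with grey solid lines for untreated and red dashed lines for FGF8 cells and 1 library per point. At day 3 and day 9 every red point lies above its grey partner, and most lines descend from day 0 to day 9.

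FGF8 and untreated cells were compared on each day, to ask whether the mitotic program differed at the end of the pretreatment and after it. A fold is the difference of log2(normalized count + 1), and its counting interval is the 95% exact binomial interval of the 2 counts, which covers counting error only and is narrow for genes as abundant as these. None of the 36 genes differed by 2-fold or more on any day, whereas 18.1% of all genes with a pair mean of at least 20 did at day 0, 15.9% at day 3 and 9.85% at day 9. The differences were small, but from day 3 on they all pointed the same way.

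At day 0 the genes were mixed, and the part of the Xist difference between these libraries in the result was not tested. The interval lay above 0 for 22 of 36 (61.1%), against 44.5% of all genes with a mean of at least 200, and below 0 for 6 (16.7%), against 33.2%. The median log2 fold was 0.17, against 0.08 for all genes at that mean. The 6 lower genes were Plk1, Cdc20, Cenpe, Kif20a, Kif23 and Mki67. Counted by sign alone, 29 genes were higher, against 54.1% of all genes, and 7 lower, with 26 to 30 higher under the other scalings. The median difference was positive for each of the 8 roles, from 0.08 for the 3 mitotic kinases and 0.09 for the 5 cytokinesis genes to 0.35 for the 4 genes of the chromosomal passenger complex.

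At day 3, in cells that had received FGF8 before differentiation, all 36 were higher than in untreated cells, against 55.5% of all genes with a pair mean of at least 20, with log2 folds from 0.15 (Kif23) to 0.94 (Birc5). The interval lay above 0 for 35 (97.2%), against 49.5% of all genes, and below 0 for none, against 32.2%. The median was 0.54, against 0.12 for all genes, whose interquartile range was -0.27 to 0.43. A difference of 1.5-fold or more was seen for 14 genes (38.9%), against 15.6% of all genes. They included 5 of the 6 checkpoint and APC/C genes and 3 of the 4 passenger complex genes, but no gene of the spindle motor, cytokinesis or chromosome roles. All 12 adipocyte markers were also higher at day 3 (median log2 fold 0.73). All 8 preadipocyte markers with enough counts were lower by 2-fold or more (median -1.74), as were 1557 of 12892 genes. The part of these markers and of the unequal depth in the result was not tested.

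At day 9 all 36 genes were again higher with FGF8, against 59.2% of all genes, by log2 folds from 0.09 (Kif20a) to 0.70 (Cenpf and Ube2c). All 36 intervals lay above 0, against 49.8% of all genes above and 26.6% below. The median was 0.31, against 0.11 for all genes. The adipocyte markers had a median of 0.21 at day 9. The 8 preadipocyte markers with enough counts were again all lower by 2-fold or more (median -2.04), as were 1142 of 13070 genes. The part of these markers in the result was not tested. Over the 3 days, 29 genes (80.6%) were higher with FGF8 each time, against 37.0% of all genes with a mean of at least 200 on each day, and 35 (97.2%) had intervals above 0 at both day 3 and day 9, against 37.2%.

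**Figure D3:**
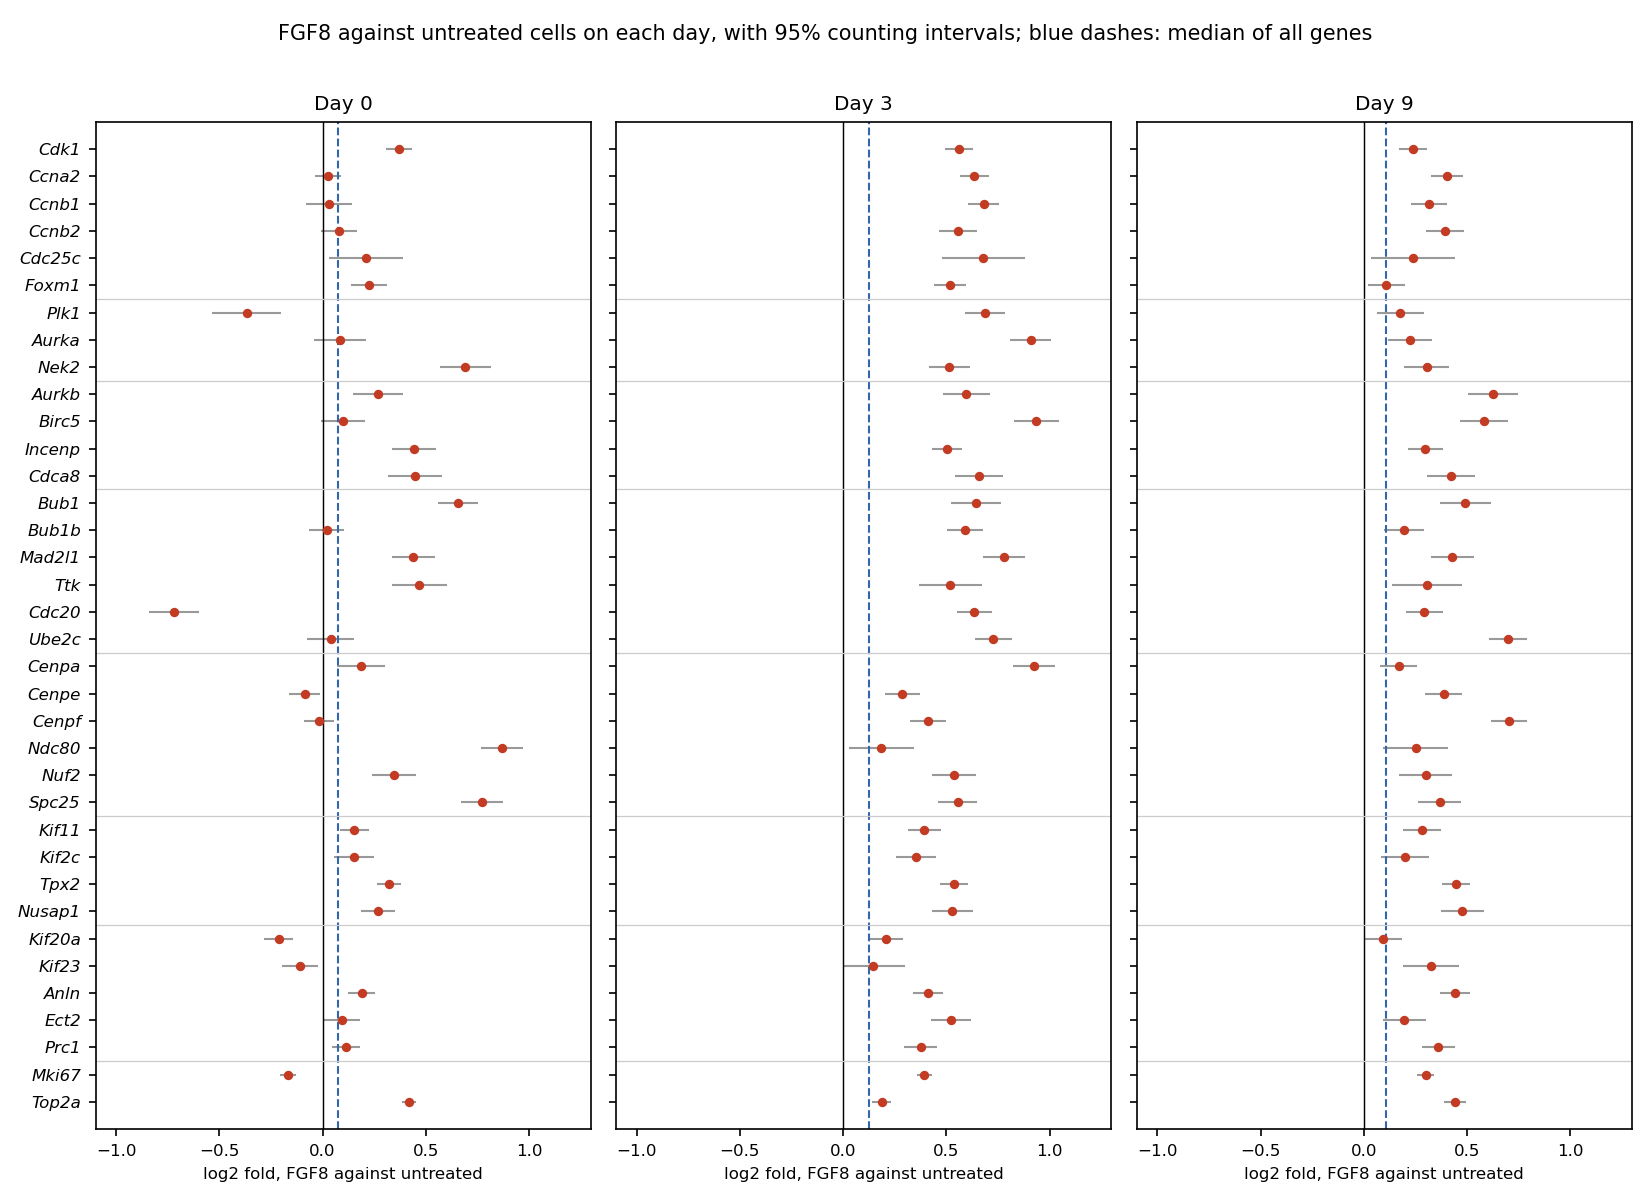
Log2 fold of FGF8 against untreated cells for the 36 genes at days 0, 3 and 9, with 95% counting intervals as bars and the median of all genes with a mean of at least 200 as a blue dashed line (0.08, 0.12 and 0.11). Points lie on both sides of 0 at day 0 and all lie to its right at days 3 and 9.

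Among the genes of mitotic entry, Cdk1, the kinase that starts mitosis, had 5242, 3156 and 2327 normalized counts in untreated cells at days 0, 3 and 9 and 6780, 4652 and 2746 in FGF8 cells. FGF8 cells were higher on each day, by log2 folds of 0.37, 0.56 and 0.24. Ccnb1, encoding cyclin B1, had 1761, 2368 and 1442 in untreated and 1801, 3796 and 1797 in FGF8 cells. Its levels at day 0 were nearly equal (log2 fold 0.03, interval -0.08 to 0.14), and day 3 was the highest day in both treatments. Foxm1, a transcription factor of G2 and M phase genes, had 2641, 2432 and 1497 in untreated and 3087, 3478 and 1615 in FGF8 cells. Cyclins A2 and B2 (Ccna2, Ccnb2) and Cdc25c, the phosphatase that activates CDK1, had log2 folds of 0.03 to 0.21 at day 0, 0.56 to 0.68 at day 3 and 0.24 to 0.40 at day 9.

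Of the mitotic kinases, Plk1 had 920, 1494 and 895 normalized counts in untreated and 713, 2405 and 1011 in FGF8 cells. It was thus lower with FGF8 at day 0 (log2 fold -0.37, interval -0.53 to -0.20) and higher at day 3 (0.69, interval 0.59 to 0.78). Aurka, encoding Aurora A of the spindle poles, had 1404, 1359 and 1009 in untreated and 1489, 2554 and 1178 in FGF8 cells. Its day 3 fold of 0.91 was the third largest of that day. Nek2, a kinase of centrosome separation, had 1228, 1428 and 928 in untreated and 1983, 2039 and 1146 in FGF8 cells, with its largest fold at day 0 (0.69).

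The chromosomal passenger complex joins Aurora B (Aurkb) to Incenp, survivin (Birc5) and borealin (Cdca8). Birc5 had 1868, 1144 and 752 in untreated and 2000, 2189 and 1128 in FGF8 cells, and its day 3 level was 1.91 times that of untreated cells. Incenp, the scaffold of the complex, had 1749, 2717 and 1469 in untreated and 2376, 3846 and 1808 in FGF8 cells. Aurkb had 1423, 1090 and 702 in untreated and 1714, 1647 and 1083 in FGF8 cells. Cdca8 had 1156, 1072 and 786 in untreated and 1577, 1691 and 1054 in FGF8 cells. All 4 genes were higher with FGF8 on all 3 days, although the interval of Birc5 at day 0 reached below 0 (-0.01 to 0.21).

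The spindle checkpoint genes and their target showed the widest range at day 0. Cdc20, the APC/C activator that the checkpoint restrains, had 2005, 1965 and 1359 in untreated and 1218, 3051 and 1666 in FGF8 cells. It had the lowest fold at day 0 (-0.72, interval -0.84 to -0.60) and was higher with FGF8 at days 3 (0.63) and 9 (0.29). Bub1b, encoding the checkpoint protein BUBR1, had 2988, 1797 and 1226 in untreated and 3029, 2705 and 1402 in FGF8 cells. Mad2l1, encoding MAD2, had 1826, 1306 and 979 in untreated and 2475, 2243 and 1319 in FGF8 cells. Ube2c, the ubiquitin-conjugating enzyme of the APC/C, had 1736, 1749 and 1147 in untreated and 1783, 2895 and 1860 in FGF8 cells. It was nearly equal between treatments at day 0 (0.04) and among the highest folds at day 9. The checkpoint kinases Bub1 and Ttk were higher with FGF8 on all 3 days, Bub1 by 0.66, 0.64 and 0.49.

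At the centromere and kinetochore, Ndc80, part of the complex that holds microtubules, had 1654, 630.0 and 464 in untreated and 3021, 716 and 552 in FGF8 cells. Its fold was the largest of all 36 at day 0 (0.87, interval 0.77 to 0.97) and among the 3 smallest at day 3 (0.18). Spc25, of the same complex, had 1717, 1605 and 992 in untreated and 2930, 2359 and 1281 in FGF8 cells. Its exons share 3693 of 7031 bases with Nostrin on the opposite strand, and the strand setting of the counting is not given in the sources used here. Cenpa, the centromeric histone, had 1623, 1269 and 1462 in untreated and 1846, 2409 and 1644 in FGF8 cells, with folds of 0.19, 0.92 and 0.17. Cenpf, a large kinetochore protein, had 4270, 1873 and 1267 in untreated and 4220, 2490 and 2066 in FGF8 cells. Ndc80 and Spc25 thus differed most at day 0, Cenpa at day 3 and Cenpf at day 9. The motor Cenpe had folds of -0.09, 0.29 and 0.39, and Nuf2, the partner of Ndc80, 0.35, 0.54 and 0.30.

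Among spindle and motor genes, Tpx2, which activates Aurora A, had 5820, 3156 and 2218 in untreated and 7281, 4584 and 3023 in FGF8 cells. Its folds of 0.32, 0.54 and 0.45 were the largest of this role at days 0 and 3, and the motors Kif11 and Kif2c and the microtubule binder Nusap1 lay between 0.15 and 0.53 on all 3 days. Of the cytokinesis genes, Kif20a had 4849, 2412 and 1400 in untreated and 4186, 2787 and 1493 in FGF8 cells. It shares 2748 of 5019 exon bases with Cdc23 on the opposite strand, and its folds of -0.21, 0.21 and 0.09 changed direction. Kif23, a motor of the midzone, had 2919, 696 and 605 in untreated and 2705, 771 and 758 in FGF8 cells. Anln, encoding the contractile ring protein anillin, had 4893, 2654 and 1934 in untreated and 5582, 3529 and 2630 in FGF8 cells. Ect2, which activates RhoA at the midzone, had 2628, 1514 and 1102 in untreated and 2801, 2178 and 1263 in FGF8 cells. The cytokinesis genes had a median fold of 0.38 at day 3, below that of 6 of the other roles.

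The pair of genes with the most counts differed from each other. Top2a, the topoisomerase that untangles chromosomes, had 18154, 7458 and 3851 in untreated and 24251, 8485 and 5230 in FGF8 cells. Mki67, the coat protein of mitotic chromosomes used as a marker of proliferation, had 15304, 9870 and 6582 in untreated and 13628, 12971 and 8108 in FGF8 cells. At day 0 Top2a was higher with FGF8 (0.42, interval 0.38 to 0.45) and Mki67 lower (-0.17, interval -0.21 to -0.13), while at day 3 the fold of Mki67 (0.39) was the larger one (Top2a 0.19).

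To ask whether FGF8 had an effect common to all days, the quasi-likelihood test of edgeR was run over 14569 genes, in which the 3 days stand in for replicates and differences between days count as error. It called none of the 36 genes at an adjusted p-value under 0.05, and 1.27% of all genes in either direction. At an unadjusted p under 0.05, 13 of the 36 were higher, against 10.3% of all genes, and none lower. The Wald test of DESeq2 called 3 as higher (Bub1, Mad2l1 and Spc25), against 3.42% of all genes. The median fitted log2 fold of the 36 was 0.35, against 0.04 for all genes tested. Bub1 had the smallest p-value, with a log2 fold of 0.58 (SE 0.118, edgeR adjusted p = 0.096, range over the alternatives 0.0117 to 0.45). Without the day 0 libraries the test called 15.5% of all genes in either direction and 3.96% as higher, and 6 of the 36 as higher (Aurkb, Birc5, Cdca8, Bub1, Mad2l1 and Ube2c). With fewer libraries, the error of this fit rested on less information.

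The genes were also compared between days within each treatment. In untreated cells the median log2 fold of day 3 against day 0 was -0.73, against -0.04 for all genes with a mean of at least 200. By 2-fold or more, 8 genes were lower (15.5% of all genes were) and none higher (19.5% of all genes were). In FGF8 cells the median was -0.34, against -0.05 for all genes with a mean of at least 200. By sign, 11 of the 36 were higher at day 3 in FGF8 cells (48.7% of all genes were) and 5 in untreated cells (49.4%). In FGF8 cells 4 genes were lower by 2-fold or more (22.1% of all genes) and 3 higher (24.1%). The 4 were Bub1, Ndc80, Kif23 and Top2a, which were also lower by 2-fold or more in untreated cells. The 3 were Ccnb1, Plk1 and Cdc20. With TMM in place of the size factors, 4 genes rather than 8 were lower by 2-fold in untreated cells, and with total counts the median in FGF8 cells was -0.54. The midzone motor Kif23 had the lowest fold of day 3 against day 0 in untreated cells (-2.07) and Ndc80 in FGF8 cells (-2.08), whereas Plk1 was the highest in both (0.70 and 1.75).

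**Figure D4:**
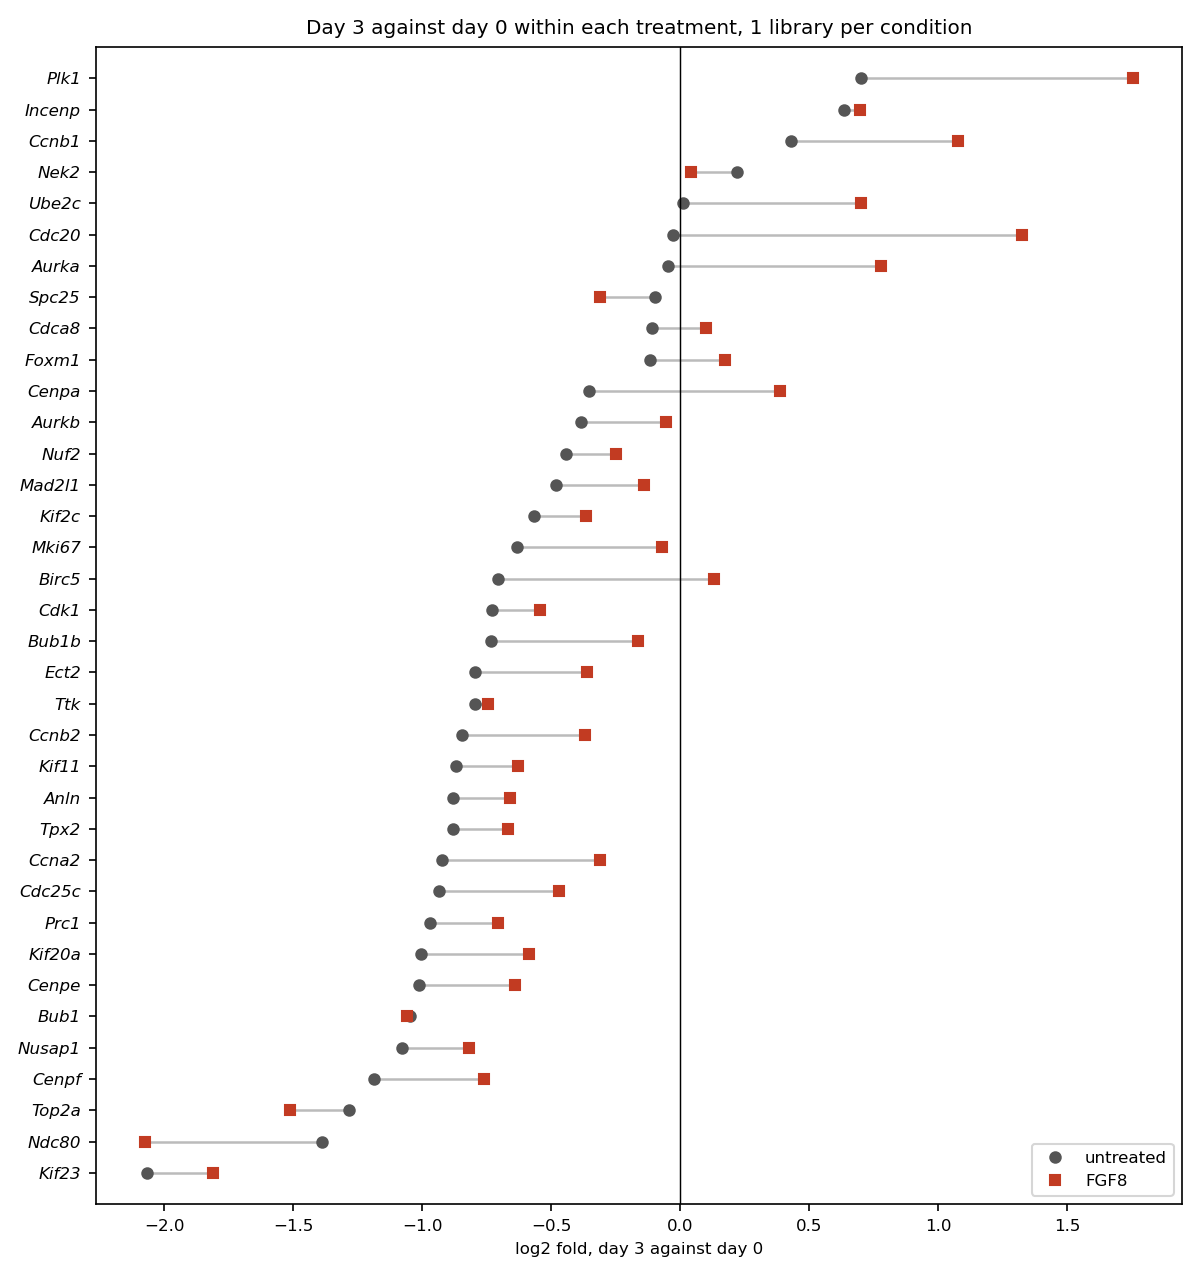
Log2 fold of day 3 against day 0 for the 36 genes within untreated (grey circles) and FGF8 (red squares) cells, 1 library per condition, ordered by the untreated value. Kif23 and Ndc80 lie lowest and Plk1 highest, and the red squares of Cdc20, Aurka and Birc5 lie far to the right of their grey circles.

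The edgeR fit, with treatments in place of replicates of a day, called 14 of the 36 as lower at day 3 than at day 0 (19.8% of all genes) and 3 as higher (26.2%). The 3 were Plk1 (log2 fold 1.29, SE 0.277, adjusted p = 0.0195, range 0.00164 to 0.0623), Ccnb1 (0.82, SE 0.196, adjusted p = 0.0261, range 0.0188 to 0.0904) and Incenp (0.73, SE 0.142, adjusted p = 0.0155, range 0.00738 to 0.0627). The strongest decreases were in Kif23 (-1.88, SE 0.183, adjusted p = 0.00389), Ndc80 (-1.68, SE 0.233, adjusted p = 0.00711) and Top2a (-1.33, SE 0.197, adjusted p = 0.00818). From day 0 to day 9 it called 29 genes as lower (24.8% of all genes) and none as higher (4258 of 14569 genes were). At an unadjusted p under 0.05 none of the 36 was higher (4747 of all genes were). DESeq2 also called none of them as higher (4142 of 15299 genes were). The 7 not called were Ccnb1, Plk1, Aurka, Incenp, Cdc20, Ube2c and Cenpa, among them the kinases PLK1 and Aurora A, cyclin B1 and the APC/C partners CDC20 and UBE2C. A fit to the libraries of days 0 and 3 alone called 5 genes as lower at day 3 (11.7% of all genes) and none as higher (16.6% of all genes). These tests compare day 0 with later days and so carry the difference in Xist described above.

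Between day 3 and day 9, libraries that both had low Xist, 35 of the 36 genes were lower at day 9 in untreated cells (53.3% of all genes were) and all 36 in FGF8 cells (50.7%), with medians of -0.57 and -0.77 against -0.06 and -0.03 for all genes. Cenpa was the exception, with a fold of 0.20 in untreated cells. None was lower by 2-fold or more in untreated cells (4.42% of all genes), and 6 were in FGF8 cells (5.40%), namely Ccnb1, Foxm1, Plk1, Aurka, Incenp and Nuf2. The edgeR fit called none of the 36 and 0.0686% of all genes in either direction, with 31 lower at an unadjusted p under 0.05 (10.3% of all genes). DESeq2 called 14 as lower (3.22% of all genes), and a fit to the libraries of these 2 days alone called 30 (10.2%). The latter fit used fewer libraries, so its error rested on less information. From day 0 to day 9, 24 genes were lower by 2-fold or more in untreated cells (19.5% of all genes) and 21 in FGF8 cells (22.6%). At day 9 Mki67 still had 6582 and 8108 normalized counts, in untreated and FGF8 cells.

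Other genes of the cell cycle were read from lists of related function. Of 55 further mitotic genes, 53 (96.4%) were higher with FGF8 at day 3 and 53 (96.4%) at day 9, against 55.5% and 59.2% of all genes, with medians of 0.23, 0.45 and 0.35 at days 0, 3 and 9. Pbk, a mitotic kinase, was the only one past 2-fold at day 0 (1047 and 2635 normalized counts, log2 fold 1.33) and Pimreg at day 3 (1249 and 2665, 1.09). Psrc1, which binds spindle microtubules, was lower with FGF8 on all 3 days (-0.96, -0.77 and -0.52), and Ckap2 at day 0 (-0.82). The 30 genes of DNA replication were all higher with FGF8 at days 0 and 3, with medians of 0.41, 0.48 and 0.28. At day 0 their median was above that of the 36 mitotic genes (0.17) and 9 of the 30 (30.0%) were higher by 1.5-fold or more, against 4 of the 36 (11.1%) and 16.9% of all genes. With 1 library per condition the difference between the lists was not tested. The largest fold was that of Cdc45 at day 0 (0.88), of Rrm2, a subunit of ribonucleotide reductase, at day 3 (1.08) and of Tk1, thymidine kinase, at day 9 (0.61).

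The G1 cyclins and CDK inhibitors did not follow 1 pattern. Ccnd1, encoding cyclin D1, had 849, 283 and 42.6 normalized counts in untreated and 4344, 350.3 and 65.8 in FGF8 cells, so its largest difference was at day 0 (log2 fold 2.35). Ccnd2 was also higher at day 0 (4380 and 9197, 1.07). Ccnd3, Ccne1, Ccne2, Cdk2, Cdk4 and Cdk6 differed by less than 2-fold on every day, with Ccne1 at 0.89 and Cdk6 at 0.64 at day 3. Cdkn1a, encoding p21, had 1422, 7434 and 9975 in untreated and 1299, 10008 and 10871 in FGF8 cells. It was thus higher at day 3 and day 9 than at day 0 in both treatments, a comparison that carries the difference in Xist described above. A link to the 29 mitotic genes that fell from day 0 to day 9 in the edgeR fit was not tested. Cdkn1c, encoding p57, had 58.8, 121 and 626 in untreated and 37.1, 96.9 and 1329 in FGF8 cells. Cdkn2b, encoding p15, was lower with FGF8 at day 3 (1264 and 645, -0.97), and Cdkn1b and Cdkn2a had folds of -0.61 and -0.69 on that day, while Cdkn2c and Cdkn2d had 0.47 and 0.66.

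The binding of the transcription factors named above was not measured here, and only their RNA levels are given. Mybl2, encoding B-MYB, had 276, 326 and 298 normalized counts in untreated and 398, 371 and 347 in FGF8 cells. Rbl2, encoding p130, was lower with FGF8 at day 0 (1999 and 1148, log2 fold -0.80) and day 3 (-0.30), and Rbl1, encoding p107, was higher (0.55 and 0.22). E2f1 was higher with FGF8 at day 0 (1138 and 1973, 0.79) and nearly equal at day 9 (0.02). E2f2 stood apart in time, at 116, 1087 and 1223 in untreated and 173, 2172 and 1526 in FGF8 cells. E2f6 had folds of 0.91, -0.05 and -0.13, and E2f3, E2f4, E2f5, E2f7 and E2f8 lay between -0.11 and 0.56. In all, none of 21 genes of MuvB, the RB family, E2F and NF-Y differed by 2-fold or more between treatments on any day, and their medians were 0.37, 0.23 and 0.16.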

How the data were processed

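RNA from 6 cultures of mouse brown preadipocytes or adipocytes was sequenced as stranded mRNA libraries, 1 per condition. The authors trimmed reads with Trim Galore, used HISAT2 for alignment to GRCm39 (mm39) and featureCounts for gene counts, and deposited raw counts, the only unit used here. The annotation, the strand setting, the treatment of multi-mapping reads and the versions of these tools are not given in the sources used here. Labels gave the groups. The 36 genes, the other lists and the tests were chosen with earlier results of these data known.

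Counts (16403254 to 38551551 per library) were divided by DESeq2 1.42.0 median-of-ratios size factors, and a pseudocount of 1 was added before log2. Intervals are Clopper-Pearson (95%) and cover counting error only. Genes were counted at 2-fold or more with a pair mean of at least 20. The 1.5-fold rule and the counts of intervals above or below 0, at a mean of at least 200, were chosen after seeing the data. edgeR 4.0.16 (quasi-likelihood, TMM, filterByExpr, day and treatment as terms, Benjamini-Hochberg over all genes) left 2 residual degrees of freedom, and was tested on simulated data, as was the fold step. The edgeR fits that left out a day or used only the days compared left fewer. Its p-values measure the spread between days or treatments and not between cultures of a condition. The alternatives were TMM, total counts or pair-wise size factors, a pseudocount of 5, no filter, a mean of at least 100, DESeq2's Wald test, leaving out each day, and only the days compared. Values in all libraries were printed for the gene of each role with the highest mean and with the largest absolute fold at day 0 and day 3, and for the 3 largest and 3 smallest folds on each day and from day 0 to day 9 in untreated cells. Exon lengths and overlaps came from GENCODE M39, and promoters from RefSeq (GRCm38.p6), whose coordinates were not mixed with GRCm39. Scripts ran under Python 3.11.15 with pandas 2.3.3 and scipy 1.17.1, and under R 4.3.3.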

Additional observations from a re-analysis of the deposited data

Results flagged for a closer look

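Several genes differed between FGF8 and untreated cells in opposite directions at the 3 harvests, and both values had a counting interval that left out 0. The difference between days was not tested, since there was 1 library per condition. Each reversal sets day 0 against a later day, and so carries the difference in Xist described above. For Cdc20 the log2 folds at days 0, 3 and 9 were -0.72, 0.63 and 0.29. Plk1 had -0.37, 0.69 and 0.18 on the same days. Mki67 had -0.17, 0.39 and 0.30, Kif20a had -0.21, 0.21 and 0.09, and Cenpe had -0.09, 0.29 and 0.39. Kif23 had -0.11 at day 0 and 0.32 at day 9. These directions were kept by sign with TMM, with total counts and with size factors of the pair alone, for which no counting intervals are given. With total counts the day 0 folds of Cenpe (-0.03) and Kif23 (-0.05) were close to no difference. Kif20a at day 9 was close to no difference, with an interval of 0.0001 to 0.185 and a fold of 0.03 with size factors of the pair.

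Other genes moved in opposite directions with time in the 2 treatments, which was not tested either. The folds from day 0 to day 3 carry the difference in Xist as well. From day 0 to day 3, Birc5 had a log2 fold of -0.71 in untreated and 0.13 in FGF8 cells, Cenpa -0.35 and 0.38, and Foxm1 -0.12 and 0.17. From day 3 to day 9, Cenpa had 0.20 in untreated and -0.55 in FGF8 cells. With total counts in place of the size factors, Birc5 (-0.75 and -0.08) and Foxm1 (-0.16 and -0.03) were lower at day 3 in both treatments, while Cenpa kept its opposite directions.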

How the results depend on the processing

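Total counts shifted the median of all genes at day 3 against day 0 in FGF8 cells from -0.04 to -0.25, and that at day 3 between treatments from 0.08 to -0.03. They moved the median of the 36 genes to 0.43 for FGF8 at day 3, to -0.54 for day 3 against day 0 in FGF8 cells, to -0.72 for day 9 against day 3 in untreated cells, and to -1.46 and -1.41 for day 9 against day 0 in untreated and FGF8 cells. Under total counts 3 genes were lower by 2-fold at day 9 against day 3 in untreated and 11 in FGF8 cells. With TMM, 1 was lower there in untreated cells and 4 at day 3 against day 0. At 1.5-fold, 4 genes were higher (16.9% of all genes) and 1 lower (2256 of 12657 genes) with FGF8 at day 0. At day 3, 14 were higher (15.6% of all genes), and at day 9, 3 were (5.95%). At 1.5-fold for day 3 against day 0 in untreated cells, 2 were higher (28.5% of all genes) and 21 lower (3543 of 13087 genes). In FGF8 cells 6 were higher (32.6%) and 13 lower (4259 of 13013 genes). For day 9 against day 3, 17 were lower in untreated cells (1687 of 13153 genes) and 28 in FGF8 cells (1774 of 12869 genes). DESeq2 called 3 genes for FGF8 and 14 lower from day 3 to day 9. Leaving out day 0 called 6 as higher with FGF8 (3.96% of all genes were). Leaving out day 3 or day 9 called none of the 36, but these fits called no gene at all, of 14256 and 13743 tested. The days compared alone gave none higher and 5 lower for day 3 against day 0, and 30 lower for day 9 against day 3. The other 191 summary values kept their direction and stayed within 1.5 times or within counting error. Of the values of single genes from the tests, 400 kept their call, 13 lost it and 37 gained it. All 36 genes stayed higher with FGF8 at days 3 and 9 under every scaling, while Ccna2, Ccnb1, Bub1b and Cenpf changed sign at day 0. Aurka, Cdc20, Ube2c and Spc25 changed sign at day 3 against day 0 in untreated cells, and Foxm1, Nek2, Aurkb, Birc5, Cdca8 and Mki67 in FGF8 cells. At day 9 against day 0, Plk1 did so in untreated and Ccnb1 and Ube2c in FGF8 cells. The labels carry no replicate numbers to block on, and the edgeR fit compared the treatments within each day.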
